A study of Arabidopsis thaliana with 11 samples.

Results

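The gene list deposited with the first experiment of the series names 5081 Arabidopsis thaliana genes, and the 1555 of them whose identifiers begin with AT2G are described here. They were chosen by identifier alone, out of 5296 AT2G identifiers and 63867 features in the experiment 1 tables. All 1527 that could be placed in the TAIR10.1 annotation lay in 1 unbroken segment at the distal end of chromosome 2, from LHCB1.4 (AT2G34430, start 14524607) to AT2G48160 (end 19696821). The segment spanned 5.17 Mb, or 26.3% of the chromosome, stopped 1468 bases short of the chromosome end, and held 0 unlisted genes. Its nearest unlisted neighbours were LHCB1.5 (AT2G34420) and RWA3 (AT2G34410). The name of the list speaks of Col, of genes held out and of nrpd1, and how the list was drawn up is not given in the sources used here.

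Endosperm was compared in 4 groups, all of seeds with a Ler mother and a Col father by their labels. Homozygous nrpd1 (3 libraries) had the nrpd1a-4 allele in both parents and was set against wild type (2 libraries) in experiment 1, at 6 days after pollination. Paternal nrpd1 (3 libraries) had nrpd1a-4 in the Col father alone and was set against wild type (3 libraries) in experiment 2, at 6 to 7 days. Seeds of crosses among several plants were dissected by hand for each library, so a library is a pool and not an individual, and the p-values measure the spread between these samples. Experiment 1 used a stranded TruSeq kit with 15 cycles and paired reads of 100 bases, and experiment 2 a SMARTer V4 kit with 12 cycles and single reads of 40 bases, so each mutant was set against wild type within its experiment alone. The way nrpd1a-4 was put into Ler is not given in the labels. Since the labels always give Ler as the mother and Col as the father, parent and strain cannot be told apart by the labels. In parts of the segment the Ler shares of experiment 1, given below, were far under those of unlisted genes, so Col counts there need not be paternal.

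Endosperm is the seed tissue that nourishes the embryo, and it is triploid, with 2 genome copies from the mother and 1 from the father. NRPD1 is the largest subunit of RNA polymerase IV, the plant enzyme that starts the small RNA pathway of DNA methylation. The Ler share of a gene, in percent and taken as Ler counts out of all counts given to either allele, is 66.7% for a gene expressed equally from all copies of a Ler mother and a Col father. Over a pool of seeds it is 33% where 1 in 2 maternal copies is Col, and 0% where all copies are Col. In bulk tissue, fewer cells of a type and less RNA per cell cannot be told apart.

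The genes below had total levels that differed between homozygous nrpd1 and wild type, and the 250 bases before their annotated starts are shown so that the change can be set beside its sequence. They were read from the RefSeq TAIR10.1 genome, 5′ to 3′ on the gene's strand, and capitals mark TATAAA or its reverse complement TTTATA. AT2G36700 (chr2:15386422-15386671, minus strand), LAC5 (chr2:16860780-16861029, minus strand), AT2G48130 (chr2:19686057-19686306, minus strand) and ROS1 (chr2:15314808-15315057, minus strand) are given below.
AT2G36700: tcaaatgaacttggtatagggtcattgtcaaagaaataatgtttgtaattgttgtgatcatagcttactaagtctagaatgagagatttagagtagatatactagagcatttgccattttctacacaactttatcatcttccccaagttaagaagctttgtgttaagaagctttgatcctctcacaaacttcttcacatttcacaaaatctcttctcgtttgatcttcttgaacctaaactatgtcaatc
LAC5: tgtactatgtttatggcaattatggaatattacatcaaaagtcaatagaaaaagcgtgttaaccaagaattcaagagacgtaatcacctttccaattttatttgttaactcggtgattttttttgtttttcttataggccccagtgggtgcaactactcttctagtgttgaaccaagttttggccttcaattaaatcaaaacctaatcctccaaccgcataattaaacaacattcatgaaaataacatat
AT2G48130: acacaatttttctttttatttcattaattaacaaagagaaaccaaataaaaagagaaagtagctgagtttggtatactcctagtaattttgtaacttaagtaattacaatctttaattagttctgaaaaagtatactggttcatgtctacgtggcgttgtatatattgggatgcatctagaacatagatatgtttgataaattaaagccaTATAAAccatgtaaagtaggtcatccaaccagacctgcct
ROS1: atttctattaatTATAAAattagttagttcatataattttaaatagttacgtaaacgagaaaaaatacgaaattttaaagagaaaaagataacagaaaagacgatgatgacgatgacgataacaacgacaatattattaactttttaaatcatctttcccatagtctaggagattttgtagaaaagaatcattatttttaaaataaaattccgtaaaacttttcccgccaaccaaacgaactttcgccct

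The windows of AT2G48130 and ROS1 held 1 match each, and those of AT2G36700 and LAC5 held none. EDA4 (AT2G48140), the other gene that differed, is transcribed away from AT2G48130, and its window (chr2:19686083-19686332, plus strand) overlaps the one shown. Among 1441 protein-coding genes of the segment 47.0% had a match in such a window, as had 48.6% of 4168 on chromosome 2. A match here describes letters only, and no binding was measured.

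NRPD1 (AT1G63020) was examined first, because the mutants carry an allele of it. It had 451, 328 and 646 counts in the homozygous nrpd1 libraries, against 851 and 761 in wild type, and 0, 0 and 0 Ler counts against 105 and 109. The groups did not overlap, with 26.4 ± 4.38 CPM (counts per 1000000) in homozygous nrpd1 (SD, n = 3) and 43.6 ± 5.65 in wild type (SD, n = 2), although the change was not called by edgeR (log2 fold change -0.72, SE 0.16, adjusted p = 0.238). In experiment 2 it had 208, 46 and 158 counts in paternal nrpd1, against 188, 462 and 298 in wild type, and these groups overlapped. The listed genes of chromosome 1, the chromosome of NRPD1, had a median Ler share of 0% in each homozygous nrpd1 library. Whether the 0 Ler counts of NRPD1 reflect lost transcript or Col sequence on the maternal copies was not tested. Total counts ranged from 15926510 to 20817788 per library in experiment 1 and from 24845721 to 35629462 in experiment 2, of which 17.8% to 18.4% and 7.05% to 7.82% were assigned to an allele. Summed CPM of 8 seed coat markers was 841 to 1180 in homozygous nrpd1 and 833 to 877 in wild type of experiment 1, and embryo markers summed to 177 to 218 in homozygous nrpd1 and 226 to 234 in wild type. The median over the 8 seed coat markers was 60.2, 57.8 and 52.4 CPM in homozygous nrpd1, against 15.7 and 12.1 CPM in wild type, so it was higher in each homozygous nrpd1 library while the sums overlapped. By gene 3 of these 8 were above wild type and 1 below without overlap, as were 15.8% and 17.3% of all features tested, and 0 of the 7 tested were called by edgeR (background 0.232% higher and 0.102% lower at an adjusted p under 0.05). Endosperm markers summed to 10922 to 16698 in homozygous nrpd1, against 11701 to 12567 in wild type. Few genes made up these sums. The median over the 7 endosperm markers was 0.646, 0.536 and 0.809 CPM in homozygous nrpd1, against 0.726 and 0.520 CPM in wild type. This median was 0.135 to 1.65 CPM over the experiment 2 libraries. In experiment 2 endosperm markers summed to 428 to 1141 in paternal nrpd1 and 836 to 4420 in wild type, with seed coat sums of 113 to 256 in paternal nrpd1 and 176 to 264 in wild type. Embryo markers there summed to 344 to 805 in paternal nrpd1 and 280 to 436 in wild type. Of 7 endosperm markers 1 to 3 stood at 0 in each library (among MINI3, IKU2 and PHE1), while seed coat and embryo markers stood at 0 for TT12, DRN or WUS alone. The part of other seed tissues in the results below was not tested.

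The Ler share divided the segment into stretches, and in experiment 1 the libraries of a group did not share 1 pattern. These stretches were set from the share along the chromosome after seeing the data, so their shares are a description. The proximal stretch of 499 kb held 146 genes (14524607 to 15023364), the middle stretch of 1731 kb held 493 (15023487 to 16754599) and the distal stretch of 2942 kb held 888 (16754891 to 19696821), with 28 genes unplaced. In the proximal stretch the median share per gene was 73.5%, 76.4% and 72.0% in homozygous nrpd1 replicates 1, 2 and 3, against 69.1% and 68.7% in wild type replicates 1 and 2. These resembled the medians of all unlisted genes, 70.6%, 76.1% and 68.8% in homozygous nrpd1 against 66.7% and 67.1% in wild type. The proximal genes thus go against the Col label of the list in every library.

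In the middle stretch the median share was 35.0%, 41.8% and 0% in homozygous nrpd1 replicates 1, 2 and 3, against 28.4% and 54.1% in wild type replicates 1 and 2. In the distal stretch it was 34.7%, 41.6% and 0% in homozygous nrpd1, against 68.7% and 53.4% in wild type. Homozygous nrpd1 replicate 3 therefore had almost no Ler counts over both stretches, and wild type replicate 1 was low in the middle stretch alone. Homozygous nrpd1 replicates 1 and 2 were near the share of a pool in which 1 in 2 maternal copies is Col. The groups overlapped in the middle stretch, where wild type replicate 1 was below homozygous nrpd1 replicates 1 and 2, and did not overlap in the distal stretch. The genotype of the pooled parents was not measured.

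**Figure D1:**
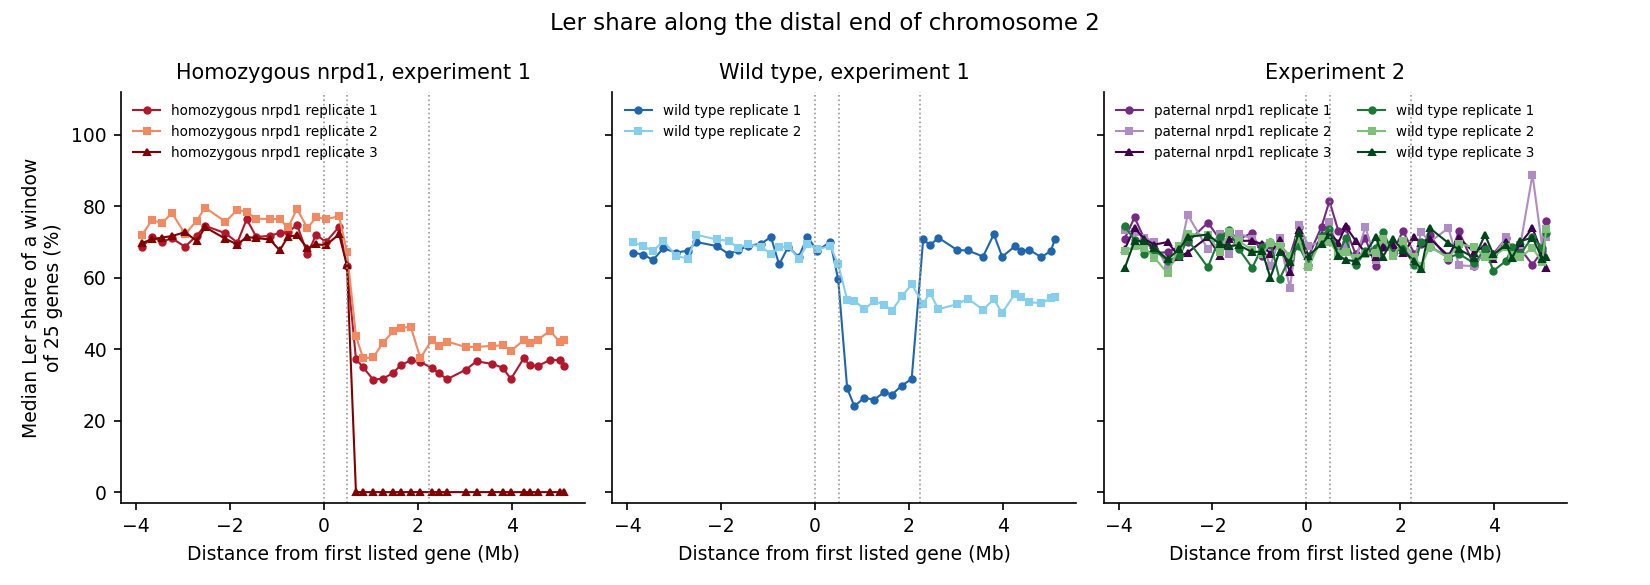
Median Ler share (%) of windows of 25 genes against distance from the first listed gene (Mb), with homozygous nrpd1 left of wild type in experiment 1 and the experiment 2 libraries in the last panel. Homozygous nrpd1 replicate 3 falls to 0% after the proximal stretch, while the experiment 2 libraries scatter around 66.7%, with 1 window of paternal nrpd1 replicate 2 at 88.9%. Dotted lines mark the ends of the stretches.

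The windows were even inside the distal and middle stretches, and the proximal stretch held 1 window. Over 13 windows of the distal stretch the window median ran from 31.6% to 37.5% in homozygous nrpd1 replicate 1, from 39.6% to 45.2% in replicate 2 and stayed at 0% in replicate 3, against 65.8% to 72.2% in wild type replicate 1 and 50.2% to 55.9% in replicate 2. Over 8 windows of the middle stretch it ran from 31.5% to 37.3%, from 37.5% to 46.3% and at 0% in homozygous nrpd1, against 24.1% to 31.7% and 50.8% to 58.1% in wild type. Within a stretch no window of wild type replicate 1 came near that library's level in the other.

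All 5 libraries of experiment 1 changed level between the same genes. The change fell between OWL1 (AT2G35720), which encodes a DnaJ-domain protein, and the RNA gene AT2G35738, which lie 3375 bases apart (15020112 to 15023486). The 3 genes that start between them had too few allele counts to be used. AT2G35738 itself had few, with 7 Ler and 7 Col counts in homozygous nrpd1 replicate 1 and 1 and 10 in wild type replicate 1. Just before the change, AT2G35710 had shares of 70.7%, 71.7% and 70.3% in homozygous nrpd1, against 69.7% and 67.9% in wild type. Just after it, AT2G35750 had 28.8%, 39.7% and 0% in homozygous nrpd1, against 27.9% and 48.1% in wild type. Wild type replicate 1 alone changed again, between ATH9 (AT2G40090) and AT2G40120. CLC2 (AT2G40060), a clathrin light chain before that change, had 35.6%, 37.7% and 0% in homozygous nrpd1, against 27.4% and 58.1% in wild type. AT2G40120, a protein kinase gene after it, had 31.9%, 42.7% and 0% in homozygous nrpd1, against 77.4% and 53.3% in wild type.

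Few Ler counts were left in homozygous nrpd1 replicate 3. They made up 28 of 51959 allele-assigned counts in the middle stretch (0.0539%, Wilson 95% interval 0.0373% to 0.0779%) and 218 of 78612 in the distal stretch (0.277%, 0.243% to 0.317%), where the intervals cover counting error only. Of 498 genes with at least 20 allele counts, 381 had 0 Ler counts and 108 had 1 to 3, and 5 genes held 82 of the 246 Ler counts. A single gene, REF4 (AT2G48110), a Mediator subunit known for its part in phenylpropanoid metabolism, was over 10%. Its Ler counts were 62, 70 and 47 in homozygous nrpd1, against 106 and 119 in wild type, and its Col counts were 44, 18 and 89 against 35 and 39. REF4 was named after its values were seen.

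Pooled over the segment, the Ler share was 37.5%, 42.8% and 5.54% in homozygous nrpd1, against 53.5% and 54.5% in wild type. All homozygous nrpd1 libraries were below both wild-type libraries, with means of 28.6% ± 20.2 (SD, n = 3) and 54.0% ± 0.730 (SD, n = 2), with homozygous nrpd1 at -25.4 percentage points relative to wild type by a two-sided exact test over the libraries (p = 0.2, the lowest value that 3 against 2 libraries can give). In experiment 2 the pooled share was 67.7%, 66.6% and 67.6% in paternal nrpd1, against 65.5%, 66.4% and 65.8% in wild type. The paternal nrpd1 libraries were all higher by a small margin, 67.3% ± 0.619 and 65.9% ± 0.425 (SD, n = 3 each), which is 1.41 points above wild type (exact permutation test, two-sided p = 0.1, again the lowest possible). Genes outside the segment moved alike in experiment 2, with paternal nrpd1 at 67.2% and wild type at 66.0% over all unlisted genes, a difference of 1.18 points (exact permutation p = 0.1), and at 66.0% and 65.0% over the listed genes of chromosome 1, a difference of 0.976 points (exact permutation p = 0.1). In experiment 1 unlisted genes stood at 68.2% in homozygous nrpd1 and 62.6% in wild type, 5.61 points higher, opposite in sign to the segment.

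Genes with the highest Ler share in homozygous nrpd1 were proximal, which follows from the way the stretches were set from these shares. Among those in the allele test the first 5 were AT2G35585, MEE27 (AT2G34880, a jumonji-domain protein), AT2G35290, CYP710A2 (AT2G34490) and AT2G35360. AT2G35290 had 476, 416 and 573 Ler counts and 19, 15 and 20 Col counts in homozygous nrpd1, against 285 and 410 Ler and 9 and 11 Col counts in wild type. CYP710A2, a sterol desaturase, had 122, 185 and 166 Ler counts and 12, 23 and 28 Col counts in homozygous nrpd1, against 77 and 97 Ler and 5 and 10 Col counts in wild type. Both genes were picked for their Ler share in homozygous nrpd1, and their Ler counts exceeded Col counts in all 5 libraries.

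Total levels of the segment genes hardly differed between homozygous nrpd1 and wild type. Of the 1555 genes, 198 had 0 total counts in experiment 1 and 1102 passed the filter on low counts. Of these 4 rose (0.363%, against 0.232% of all 18570 features tested) and 1 fell (0.0907%, against 0.102% of all) at an edgeR adjusted p under 0.05. These shares were small counts near the background. The median log2 fold change was 0.03 in the segment and 0.00 over all features. At an unadjusted p under 0.05 edgeR gave 100 higher (9.07%, against 6.47% of all) and 58 lower (5.26%, against 5.25%).

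The genes that rose were almost silent in wild type. AT2G36700 (15384706 to 15386421, minus strand), which encodes a pectin lyase-like protein of the cell wall, had 250, 165 and 370 counts in homozygous nrpd1 (14.7, 11.1 and 17.6 CPM), against 0 and 0 in wild type. It was at least 183-fold higher in homozygous nrpd1, with the floor at 3 counts over the wild-type group (edgeR adjusted p = 0.0168). Its allele counts were 23, 22 and 0 Ler and 37, 24 and 91 Col in homozygous nrpd1, so replicates 1 and 2 carried both alleles and replicate 3 Col alone. LAC5 (AT2G40370, 16857959 to 16860779, minus strand), a laccase of a family that oxidises phenolic compounds, had 440, 349 and 322 counts in homozygous nrpd1 (25.8, 23.4 and 15.3 CPM), against 4 and 0 in wild type. Its log2 fold change was 7.55 (SE 0.66, edgeR adjusted p = 0.0245), with Ler counts of 52, 37 and 0 and Col counts of 59, 49 and 87 in homozygous nrpd1. Counts of both genes did not overlap between the groups.

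EDA4 (AT2G48140) and AT2G48130, both of the lipid-transfer protein family, are neighbours at the end of the chromosome and rose together. EDA4 (19686333 to 19687664, plus strand) had 389, 448 and 199 counts in homozygous nrpd1 (22.8, 30.0 and 9.47 CPM), against 1 and 0 in wild type, 725 times the level, where counting error allows 130 to 28648 (edgeR adjusted p = 0.0457). AT2G48130 (19682456 to 19686056, minus strand) had 317, 276 and 190 counts in homozygous nrpd1 (18.6, 18.5 and 9.04 CPM), against 2 and 7 in wild type (log2 fold change 5.95, SE 0.60, edgeR adjusted p = 0.0331). Homozygous nrpd1 replicate 3 was the lowest of the mutant libraries for both genes and still far above wild type. They had 0 to 3 counts of an allele in any library of experiment 1, so their parental origin was not measured. Reads of such multigene families can be shared between copies, which makes their counts less certain. In experiment 2 the 4 genes that rose were at 0 to 2 counts in every library. The median level of seed coat markers was also higher in homozygous nrpd1, as given above, and its part in these 4 changes was not tested.

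ROS1 (AT2G36490, DML1 in RefSeq, 15307907 to 15314807, minus strand) was the gene that fell. It encodes a DNA glycosylase that removes methylated cytosine, and in vegetative tissue its transcription is known to depend on RNA-directed DNA methylation. It had 2833, 2258 and 2519 counts in homozygous nrpd1, against 7585 and 10296 in wild type. The groups did not overlap, at 146 ± 23.7 CPM in homozygous nrpd1 (SD, n = 3) and 479 ± 78.7 CPM in wild type (SD, n = 2), a log2 fold change of -1.72 (SE 0.17, edgeR adjusted p = 0.0325). Counts of both alleles were lower in homozygous nrpd1: Ler counts were 113, 147 and 0, against 301 and 780, and Col counts 267, 198 and 372, against 821 and 792. ROS1 lies in the middle stretch, where the Ler share differed between libraries and was 0% in replicate 3. Its Ler counts alone therefore do not measure a change of the Ler allele. The Col counts fell, and replicate 3, where almost all segment counts were Col, was also below wild type (log2 fold change of Col counts -1.48, SE 0.18, edgeR adjusted p = 0.0011). In experiment 2 ROS1 was at 54.1, 19.1 and 26.3 CPM in paternal nrpd1, against 47.7, 204 and 136 CPM in wild type. Those groups overlapped through wild type replicate 1 (log2 fold change -1.96, SE 0.60, edgeR adjusted p = 0.616).

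**Figure D2:**
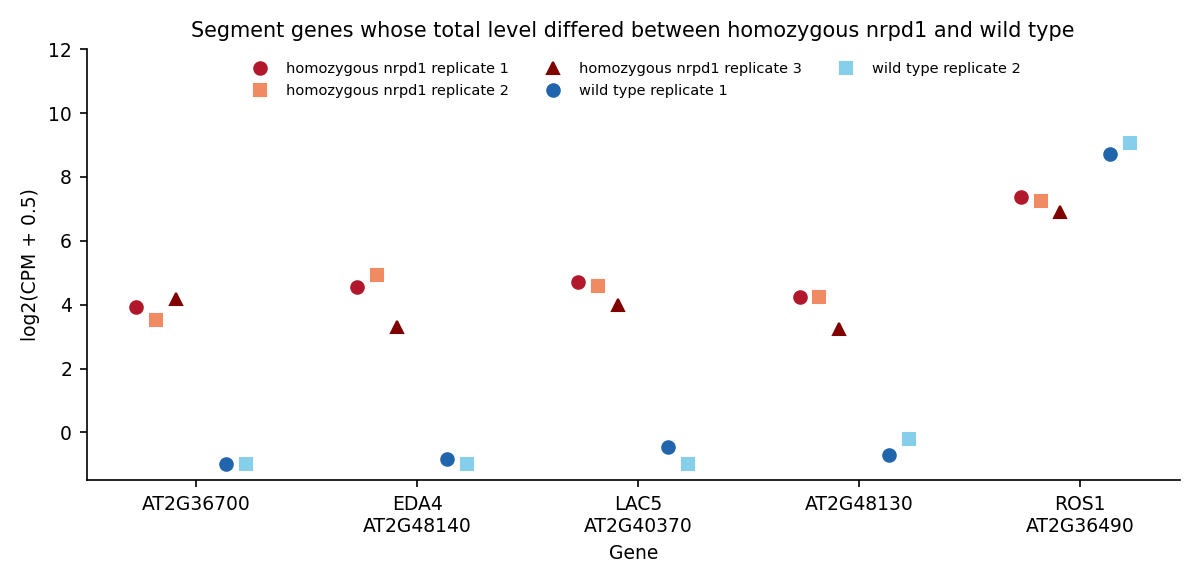
Total level, as log2(CPM + 0.5), of the 5 segment genes called in experiment 1, with 1 point per library and homozygous nrpd1 left of wild type. The 4 genes that rose lie near the floor in both wild-type libraries, and ROS1 is lower in all 3 homozygous nrpd1 libraries.

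These 5 calls rested on few libraries. None remained without homozygous nrpd1 replicate 1, wild type replicate 1 or wild type replicate 2, and 2 remained without homozygous nrpd1 replicate 2 or replicate 3. The direction of each was kept, and the adjusted p of ROS1 ran from 0.0693 to 0.354 when 1 library was left out. DESeq2 called 27 genes higher (2.26% of 1194 with an adjusted p, against 1.81% of all 20683) and 7 lower (0.586%, against 0.725% of all), and the 4 that rose by edgeR were among the 27.

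Paternal nrpd1 gave no calls on total level in the segment. Of 1085 genes tested 0 rose and 0 fell by edgeR (background 0% and 0% of 18901 features), with 29 higher (2.67%, against 2.04% of all) and 57 lower (5.25%, against 5.88% of all) at an unadjusted p under 0.05. DESeq2 called 0 higher (background 0.0188%) and 1 lower (0.0851%, background 0.0282%). The median log2 fold change was 0.06 in the segment and 0.01 over all features.

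The Ler to Col ratio was tested across the genome with the same model. In homozygous nrpd1 0 of 537 segment genes had a higher ratio (background 0.108% of 10181 genes) and 0 a lower one (background 7.08%), by edgeR. That background was 721 genes, of which 4 were among the 8417 unlisted genes tested and the others were listed genes outside the segment. At an unadjusted p under 0.05 the segment had 4 genes with a higher and 4 with a lower ratio (0.745% each, against 3.65% and 8.03% of all). Yet the median log2 change of the ratio was -2.17 in the segment, and 0.34 over the unlisted genes. Within the homozygous group the shares of replicates 1 and 2 stood far from those of replicate 3.

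In paternal nrpd1 1 of 383 segment genes had a higher ratio (0.261%, background 0.0407% of 7371 genes) and 0 a lower one (background 0.0271%). It was AT2G44250 (18293457 to 18295536, plus strand), annotated with a DUF239 domain. Its Col counts were 0, 0 and 5 in paternal nrpd1, against 28, 21 and 37 in wild type, and its Ler counts were 41, 99 and 246 against 152, 71 and 221. The Col counts did not overlap and the Ler counts did, so the share was 100%, 100% and 98.0% in paternal nrpd1 and 84.4%, 77.2% and 85.7% in wild type (log2 change of the ratio 3.91, SE 0.58, edgeR adjusted p = 0.0137). The call was lost without paternal nrpd1 replicate 3 (adjusted p = 0.0738), wild type replicate 2 (0.0504) or wild type replicate 3 (0.0615), each by edgeR.

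Counts assigned to Col, scaled by the library size of all counts, changed far more than totals did. In homozygous nrpd1 42 of 537 genes had higher Col counts (7.82%, background 8.22% of 10181 genes) and 2 had lower ones (0.372%, background 0.511%), by edgeR. Outside the list 18 of 8417 genes were called higher. By stretch 0 proximal, 4 middle and 38 distal genes were called higher. The median log2 change of Col counts was -0.29 in the proximal, 0.37 in the middle and 0.93 in the distal stretch, against -0.27 over unlisted genes, and it was above 0 in 293 of 297 distal genes. Over the same genes the median log2 change of total counts was -0.04, -0.01, -0.01 and -0.02.

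**Figure D3:**
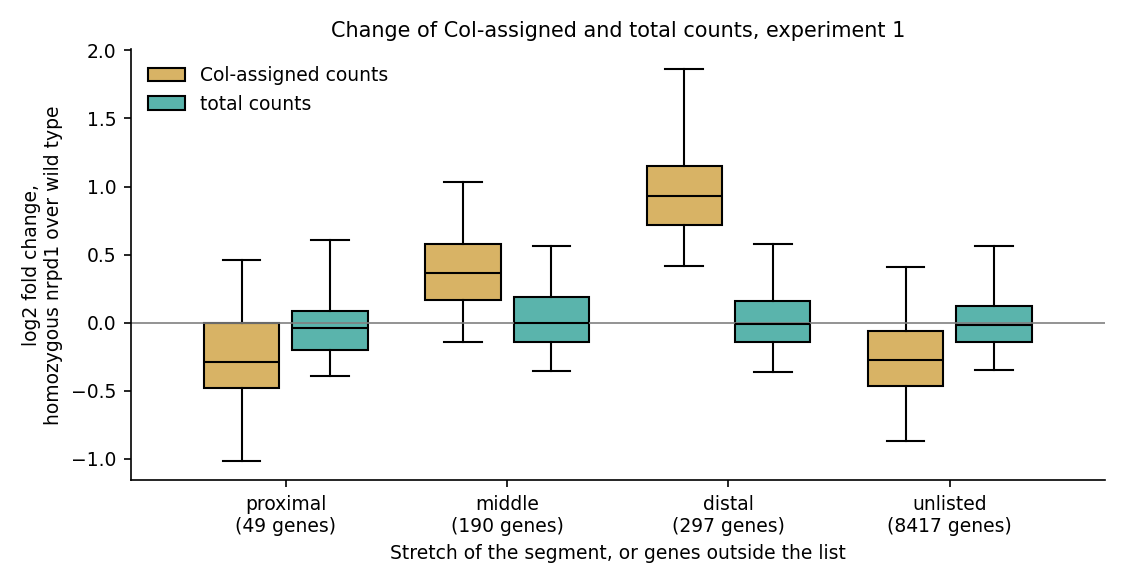
Log2 fold change of Col-assigned and of total counts, homozygous nrpd1 over wild type in experiment 1, over the genes of each stretch and outside the list, with boxes at the middle 50% of genes, a line at the median and whiskers that leave out the lowest and highest 5% of genes. Col counts move up through the middle and distal stretches to a median of 0.93, while the median of total counts stays within 0.04 of 0.

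The 42 genes called on Col counts had totals that were mostly higher in value as well, with a median log2 change of 0.30 and a positive value in 37 of them. Col counts are part of the totals, so these are no independent measures, and the called genes differ in this from the median gene of each stretch. AT2G40460, a transporter of the major facilitator superfamily, had Col counts of 80, 69 and 107 in homozygous nrpd1, against 4 and 2 in wild type, and Ler counts of 40, 45 and 0 against 8 and 21. Its Col counts rose (log2 fold change 4.83, SE 0.37, edgeR adjusted p = 0.000241), and its total was 23.1, 27.2 and 18.8 CPM against 2.01 and 4.73 CPM without a call (edgeR adjusted p = 0.0879). UMAMIT14 (AT2G39510), an exporter of amino acids, had Col counts of 27, 65 and 104 in homozygous nrpd1, against 19 and 5 in wild type (log2 fold change 2.47, SE 0.62, edgeR adjusted p = 0.0386). Its total was 8.16, 19.2 and 17.8 CPM in homozygous nrpd1 and 4.75 and 4.89 CPM in wild type (edgeR adjusted p = 0.264). The groups did not overlap for either gene. ROS1 and AT2G34510 were the genes whose Col counts fell. The number of genes with higher Col counts was 12 without homozygous nrpd1 replicate 3, 15 without wild type replicate 1 and 75 without wild type replicate 2. In paternal nrpd1 0 of 383 genes were called in either direction (background 0% and 0%), with 6 higher (1.57%, against 2.14% of all) and 16 lower (4.18%, against 4.48% of all) at an unadjusted p under 0.05 by edgeR.

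Whether total level followed the alleles was asked with the Ler to Col ratio of experiment 2 wild type, which is independent of the experiment 1 libraries. The ratio was available for 380 segment genes that averaged 20 or more allele counts per library, of which 31 were proximal, 145 middle and 204 distal. If the alleles kept their own strengths, a library with Col in place of Ler copies would have lower totals of genes with a high ratio and higher totals of genes with a low one. For each library the slope of log2(CPM + 0.5) on the log2 ratio was taken over genes. Over the whole segment it was 0.194, 0.211 and 0.0888 in homozygous nrpd1, against 0.152 and 0.173 in wild type. Homozygous nrpd1 replicate 3 was the lowest and the other homozygous nrpd1 libraries were the highest. The group means were 0.165 ± 0.0664 (SD, n = 3) and 0.163 ± 0.0151 (SD, n = 2), a difference of 0.0020 (two-sided exact permutation p = 1.0). The sign of so small a difference changed under several alternatives. Over 6013 unlisted genes the slopes differed by 0.0396 (two-sided exact permutation p = 0.2, the smallest this design allows), and in experiment 2 the segment slopes differed by 0.0025 (two-sided exact permutation p = 1.0). The experiment 2 comparison shares its wild-type libraries with the ratio, so the ratio is not independent there.

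Before any correction for unlisted genes, libraries within the homozygous group were ordered as their Ler shares were in the middle and distal stretches. In the middle stretch the slope minus the mean of the experiment was 0.048, 0.054 and -0.092 in homozygous nrpd1, against -0.028 and 0.018 in wild type. In the distal stretch it was 0.020, 0.036 and -0.079 in homozygous nrpd1, against 0.011 and 0.011 in wild type. Replicate 3, the library with almost no Ler counts, was the lowest in both stretches. Over unlisted genes it was 0.024, 0.037 and -0.014 in homozygous nrpd1, against -0.020 and -0.028 in wild type, so replicate 3 was also below its sister libraries there, by a smaller margin. After the slope of unlisted genes was taken off, the distal values were -0.004, -0.001 and -0.065 in homozygous nrpd1, against 0.031 and 0.039 in wild type. On that scale the homozygous nrpd1 libraries were all below wild type, by a mean of -0.0580 (two-sided exact permutation p = 0.2, the smallest this design allows). The stretches were set after seeing the data, and without the subtraction the distal difference was -0.0184. With the subtraction, the difference over the whole segment was -0.0376 (two-sided exact permutation p = 0.4). The middle values on that scale were 0.024, 0.017 and -0.078 in homozygous nrpd1, against -0.008 and 0.045 in wild type. Those groups overlapped (two-sided exact permutation p = 0.8), and replicate 1 was above replicate 2, unlike their shares. In the middle stretch the low library of wild type, replicate 1, had the lower slope of its group, as its share was. In the distal stretch wild type replicate 1 had the higher share, 68.7% against 53.4% in replicate 2. Its slope there was not higher, at 0.227 against 0.228 before the subtraction. Wild-type slopes thus ran with the share in the middle stretch alone.

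**Figure D4:**
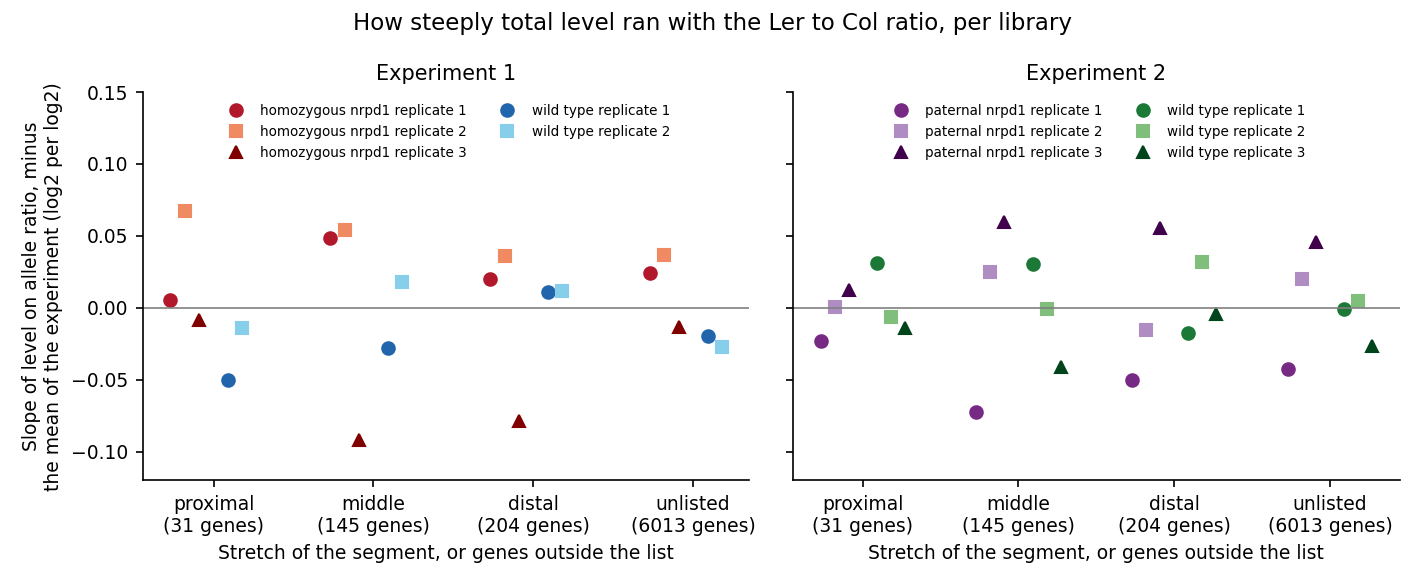
Slope of log2(CPM + 0.5) on the log2 Ler to Col ratio of experiment 2 wild type, minus the mean of the experiment, with 1 point per library for each stretch and for unlisted genes. In experiment 1 homozygous nrpd1 replicate 3 lies at -0.092 in the middle and -0.079 in the distal stretch, below the other 4 libraries.

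Across genes, the change in homozygous nrpd1 replicate 3 against the wild-type mean fell with the ratio, with Pearson's r of -0.31 over 145 middle genes and -0.40 over 204 distal genes. In replicates 1 and 2 r was 0.23 and 0.20 in the middle and 0.04 and 0.07 in the distal stretch. Over unlisted genes r was 0.22, 0.19 and 0.05 in replicates 1, 2 and 3. Between sister libraries, replicate 1 minus replicate 3 had r = 0.53 in the middle, 0.44 in the distal stretch and 0.17 over unlisted genes. These are descriptions across genes, which share libraries and are not independent replicates. The 878 listed genes of chromosome 1 with a ratio, where the median share was 0% in all homozygous nrpd1 libraries, gave r of 0.00, 0.07 and -0.18. Those medians hide a mixed set, since the pooled shares of listed chromosome 1 genes were 0.114%, 9.72% and 3.74% in homozygous nrpd1. Wild type had medians of 67.6% and 58.5% there.

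The size of the change fell short of a change calculated from the ratio. The calculated change takes the Ler counts of experiment 2 wild type as the output of 2 maternal copies and the Col counts as that of 1 copy. It then swaps maternal Ler for Col copies to match the median share of each library and stretch. Before the log2 was taken, 0.5 counts were added to each calculated level. In replicate 3 this added value alone set the calculated level of a gene with 0 Col counts, and so the size of its calculated fall. The calculation thus takes the whole ratio as an effect of strain and none of it as one of parent, which was not tested. With genes of a share above 85% left out, a bound chosen after seeing the data, the measured change had a slope on the calculated change of 0.33, 0.29 and 0.37 in homozygous nrpd1 replicates 1, 2 and 3 (r of 0.15, 0.07 and 0.36 over 334 genes). A slope of 1 would be a change of the full calculated size. With all 349 middle and distal genes the slopes were -0.06, -0.12 and 0.07 in replicates 1, 2 and 3 (r of -0.03, -0.04 and 0.23), so in replicates 1 and 2 the sign itself depended on that bound.

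Genes grouped by share show where the ratio was followed. Among 4 middle and distal genes with a share up to 33%, the median change in replicate 3 was 0.66 against a calculated 1.02, on the log2 scale. Among 17 genes from 33% to 50% it was 0.36 against 0.51, and among 32 genes from 50% to 60% it was 0.08 against 0.28. The 234 genes from 60% to 73% had a median of 0.01, which equals the calculated 0.01. Above that, 47 genes from 73% to 85% had a median of -0.08 against -0.43, and 15 genes above 85% had -0.24 against -3.94. Those 15 genes had 203 Col counts in all in experiment 2 wild type, so their calculated falls rest on few counts. The order of the group medians in replicate 3 ran with the calculated order, and the sizes did not at the upper end. Against wild type replicate 1 alone the 6 medians were 0.49, 0.25, 0.09, 0.00052, -0.04 and -0.29, and against wild type replicate 2 alone 0.84, 0.38, 0.13, 0.0037, -0.03 and -0.17. Wild type replicate 1 minus replicate 2 had medians of 0.27, 0.16, 0.02, -0.0023, -0.00042 and -0.09 in the same groups, which ran the same way apart from 1 pair of near-equal values. Middle genes alone gave 0.76, 0.25, 0.06, -0.01, -0.08 and -0.10, where replicate 1 had the lower Ler share. Distal genes alone gave 0.24, 0.03, -0.0034, 0.0026, 0.01 and -0.06. Replicate 1 had the higher share there, for which the calculation gives the reverse order. Unlisted genes in the same ranges of share had medians between -0.03 and 0.04.

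**Figure D5:**
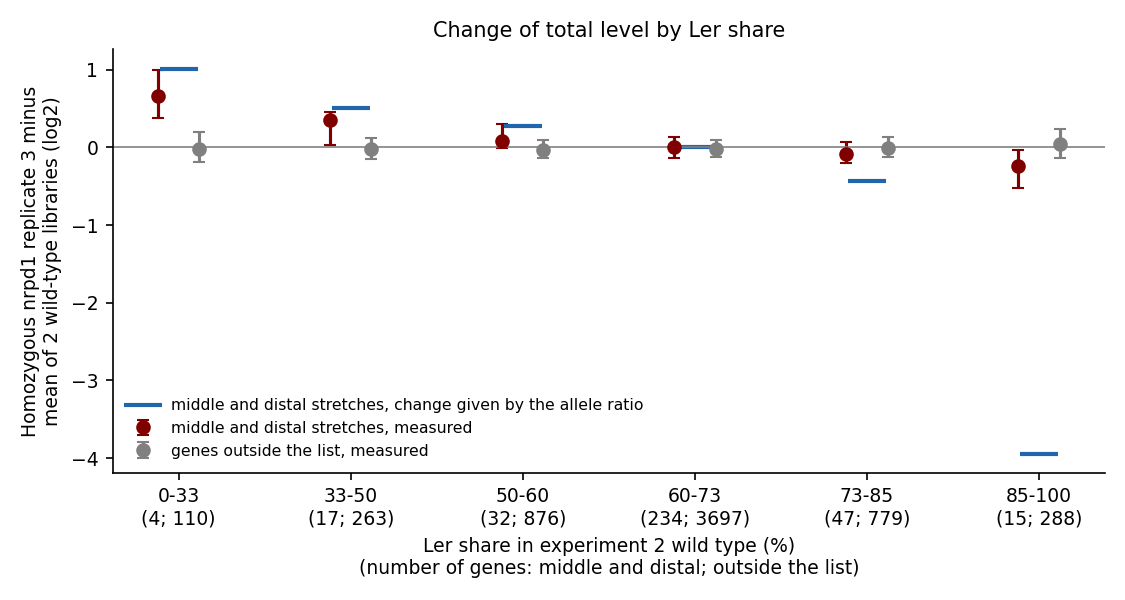
Log2 change of total level in homozygous nrpd1 replicate 3 against the mean of 2 wild-type libraries, by Ler share in experiment 2 wild type, as medians with the middle 50% of genes for middle and distal and for unlisted genes, and the calculated change as bars. The measured medians run down from 0.66 to -0.24 with the share, while the calculated value for shares above 85% is -3.94 and rests on few Col counts.

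For 21 middle and distal genes the share was at most 50%, from strain or from parent, which cannot be told apart in experiment 2 wild type. They had median changes of 0.17, -0.04 and 0.37 in homozygous nrpd1 replicates 1, 2 and 3, against calculated changes of 0.29, 0.25 and 0.60. Replicate 3 was above both wild-type libraries for 15 of them (71.4%), replicate 1 for 13 (61.9%) and replicate 2 for 10 (47.6%). Over 373 unlisted genes in that range the shares above both were 33.2%, 35.4% and 24.7% in replicates 3, 1 and 2. The medians of those unlisted genes in replicates 1, 2 and 3 were -0.02, -0.14 and -0.02. Over 48 listed genes of chromosome 1 in that range the shares above both were 72.9%, 68.8% and 58.3% in replicates 3, 1 and 2. Their medians in replicates 1, 2 and 3 were 0.33, 0.24 and 0.40, so the rise was not particular to the segment. Allele counts summed over the 21 genes in replicate 3 were 2 Ler and 4488 Col, or 216 CPM on the scale of total counts, against 167 and 142 CPM in wild type.

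CDKB1;2 (AT2G38620), a mitotic cyclin-dependent kinase with a share of 10.4%, was at 15.5, 6.90 and 22.3 CPM in homozygous nrpd1, against 15.5 and 8.94 CPM in wild type. Its change in replicate 3 was 0.89 against a calculated 0.73, on the log2 scale, and replicate 2 was the lowest library, so the groups overlapped. PRA1.B2 (AT2G40380), a membrane protein of vesicle transport with a share of 39.6%, was at 37.2, 29.4 and 37.9 CPM in homozygous nrpd1, against 28.4 and 26.8 CPM in wild type. Its Ler counts were 117, 73 and 0 in homozygous nrpd1, against 209 and 155, and its Col counts were 318, 232 and 543 against 163 and 201. Total and Col counts did not overlap between the groups, with the total least raised in replicate 2. MTHFR2 (AT2G44160), an enzyme of folate metabolism with a share of 46.4%, was at 26.4, 22.1 and 27.8 CPM in homozygous nrpd1, against 17.6 and 17.8 CPM in wild type, again without overlap. CNGC12 (AT2G46450), an ion channel with a share of 23.8%, was at 17.3, 12.7 and 20.9 CPM in homozygous nrpd1, against 15.0 and 15.6 CPM in wild type, with a change in replicate 3 of 0.43 against a calculated 1.02. The RNA gene AT2G42485 (17690531 to 17691018, plus strand), with 0 Ler and 83 Col counts in experiment 2 wild type, was low throughout, at 1.82, 1.47 and 3.62 CPM in homozygous nrpd1 and 1.34 and 0.988 CPM in wild type. None of these totals was called by edgeR (adjusted p between 0.268 and 0.827). Proximal AT2G34840, with 0 Ler counts of 62 in experiment 2 wild type, was at 2.59, 1.67 and 2.90 CPM in homozygous nrpd1 and 3.17 and 2.75 CPM in wild type.

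The 15 genes with a share above 85% summed to 3606 Ler and 203 Col counts in experiment 2 wild type. In experiment 1 homozygous nrpd1 replicate 3 had 4 Ler and 4797 Col counts, or 231 CPM on the scale of total counts, against 265 and 271 CPM in wild type. Its Col counts alone were 230 CPM, against 71.8 and 76.2 CPM in wild type. Median total changes were 0.14, 0.21 and -0.24 in replicates 1, 2 and 3, and replicate 3 was below both wild-type libraries for 9 of 15 genes. Over 47 listed genes of chromosome 1 in that range 38.3% were below both in replicate 3. Their medians in replicates 1, 2 and 3 were 0.42, 0.28 and -0.03. Over 288 unlisted genes in that range 26.7% were below both in replicate 3, and the medians were 0.24, 0.19 and 0.04.

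CYP709B1 (AT2G46960), a cytochrome P450, shows this by counts. It had 206 Ler and 0 Col counts in experiment 2 wild type. In experiment 1 its Col counts were 573, 569 and 1043 in homozygous nrpd1, against 1 and 286 in wild type, and its Ler counts 566, 576 and 0 against 1130 and 913. Total levels were 480, 521 and 391 CPM in homozygous nrpd1, against 431 and 440 CPM in wild type. The total thus changed little (log2 fold change 0.09, SE 0.13, edgeR adjusted p = 0.794), while wild type replicate 1, with Ler on all maternal copies of the distal stretch by its share, had almost no Col counts. LBD16 (AT2G42430), a transcription factor known from lateral root formation, had 168 Ler and 0 Col counts in experiment 2 wild type. Its Col counts were 58, 50 and 143 in homozygous nrpd1, against 5 and 48 in wild type, at totals of 36.8, 42.8 and 35.7 CPM against 34.5 and 39.8 CPM. LACS1 (AT2G47240), a long-chain acyl-CoA synthetase of wax and cutin synthesis, had Col counts of 1130, 920 and 1341 in homozygous nrpd1, against 9 and 386 in wild type. In these 3 distal genes wild type replicate 2, whose share was between the others, had intermediate Col counts. AGT3 (AT2G38400), an aminotransferase of the middle stretch, was at 73.6, 67.0 and 31.3 CPM in homozygous nrpd1, against 48.4 and 90.2 CPM in wild type, so replicate 3 was the lowest library, with 1.06 on the log2 scale below the wild-type mean against a calculated fall of 6.93.

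The gene lists kept for this tissue hold 70 genes, of which 29 are in the segment and 22 were tested in experiment 1, with ROS1 as the 1 call. Small RNA and DNA methylation genes were all lower in value (3 of 3 tested, median log2 fold change -0.26, against 0.00 over all features). NRPE1 (AT2G40030), the largest subunit of RNA polymerase V, was at 162, 191 and 177 CPM in homozygous nrpd1 and 186 and 235 CPM in wild type, and the groups overlapped. Its Ler share was 40.7%, 52.9% and 0.425% in homozygous nrpd1, against 27.7% and 57.2% in wild type. Polycomb and endosperm growth genes had a median of -0.18 (2 tested), photosynthesis genes -0.22 (4 tested), cell division genes -0.38 (3 tested) and seed coat genes 0.42 (3 tested), with 0 calls in each. FIS2 (AT2G35670), a subunit of the seed Polycomb complex, was at 6.22, 1.81 and 5.23 CPM in homozygous nrpd1, against 6.03 and 4.73 CPM in wild type. For heat shock genes 1 was tested, at -0.15.

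UMAMIT transporters, which export amino acids, had positive values in 3 of 3 tested genes (median 1.14), with 0 calls on total counts. Seed maturation genes had a median of 2.54 over 3 tested genes and 0 calls, and this came from 1 library. EM6 (AT2G40170), a late embryogenesis protein gene, was at 0.235, 589 and 0 CPM in homozygous nrpd1, against 0 and 0.104 CPM in wild type. M10 (AT2G41280), of the same class, was at 0.0591, 404 and 0.143 CPM in homozygous nrpd1, against 0.0559 and 0 CPM in wild type. LEA25 (AT2G42560) was at 23.7, 621 and 60.3 CPM in homozygous nrpd1, against 15.2 and 65.3 CPM in wild type. Homozygous nrpd1 replicate 2 was the high library for each of them, and the other 4 libraries overlapped.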

How the data were processed

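Endosperm mRNA was sequenced in 11 libraries in 4 groups. For each library the authors deposited unnormalized counts of all reads, of Col reads and of Ler reads per feature, and for experiment 1 a gene list that holds identifiers alone (unit other). Per the submitters' processing notes the tools were cutadapt, Trim Galore, FastQC, TopHat and HTSeq with the build TAIR10. Versions, roles, strand use and the way reads were assigned to alleles are not given in the sources used here, so counts of overlapping genes or near-identical copies are uncertain. Summary lines of experiment 2 tables (11.6% to 13.3% of counts) were left out.

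Totals were tested per experiment in edgeR 4.0.16 (R 4.3.3) with TMM, filterByExpr and the quasi-likelihood test, and Benjamini-Hochberg adjustment over all features at 0.05. Ler to Col ratios were tested with library, allele and allele by genotype terms, and Col counts with the factors of the total, where a gene averaged 20 or more allele counts. Log2 changes are mutant over wild type. The scripts were tested on simulated data. Single values were compared with exact permutation tests (scipy 1.17.1). Positions, names and sequences are from RefSeq TAIR10.1. Alternatives were DESeq2 1.42.0, other factors and filters, a replicate block, and leaving out each library.

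The members and gene lists were chosen with earlier results of these data known. Named genes are those called in any test (the 5 on total level in full, examples of the others), the 5 with the highest and lowest ratio, list members, the 5 with the highest Ler share in homozygous nrpd1, the segment ends and NRPD1. Named beyond this rule, with their values known, were PRA1.B2, MTHFR2 and LACS1 (of the groups at most 50% and above 85%), REF4, and the genes beside the changes of Ler share.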

Additional observations from a re-analysis of the deposited data

Results flagged for a closer look

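The pooled Ler share of the segment changed in opposite directions in the mutants. It was lower by -25.4 percentage points in homozygous nrpd1 against wild type in experiment 1, where every mutant library was below every wild-type library. It was higher by 1.41 points in paternal nrpd1 against wild type in experiment 2, where every mutant library was above every wild-type library. Unlisted genes moved by 1.18 points in experiment 2 and by 5.61 points in experiment 1, both higher in the mutant, so the rise in experiment 2 was not particular to the segment. The difference between these effects was -26.8 points (exact permutation of labels within each experiment, two-sided p = 0.105 over 200 relabellings). Mutation, kit, read length and the make-up of the parents differ between the experiments and cannot be told apart.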

How the results depend on the processing

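Calls on total counts depended on the tool and on single libraries. For homozygous nrpd1 4 genes were higher and 1 lower by edgeR, 27 and 7 by DESeq2, and 16 and 6 with the replicate block (1.45% and 0.544%, against 1.32% and 0.302% of all features). Without 1 library each, 0 to 2 were higher and 0 lower. TMM without the listed genes, DESeq2 size factors and no low-count filter kept 4 and 1. For paternal nrpd1 DESeq2 called 1 lower. Genes with a lower Ler to Col ratio in homozygous nrpd1 numbered 0 to 4, with higher Col counts 12 to 75, with lower Col counts 1 to 2, and with a higher ratio in paternal nrpd1 0 to 2 when 1 library was left out. With the replicate block 42 genes had higher Col counts, of which 25 were among the 42 without it, and 2 had lower ones. With DESeq2 size factors they were 42 and 2, all shared.

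Leaving out 1 library moved the share difference between -32.5 and -13.9 points in experiment 1 and between 1.21 and 1.77 in experiment 2, and medians of genes gave -33.1 and 1.80. The slope difference of the segment, 0.0020, turned to -0.0022 and -0.0139 with minimums of 10 and 50 allele counts, to -8.04e-05 with a pseudocount of 0.1, to -0.00073 with the ratio from experiment 1 wild type, to -0.0378 without shares of at least 85% or at most 50%, and to -0.0184 in the distal stretch alone, an alternative added after seeing the data. It was 0.0085 in the middle and 0.0537 in the proximal stretch alone. Without 1 library it ran from -0.0212 (without homozygous nrpd1 replicate 2) to 0.0400 (without homozygous nrpd1 replicate 3). The cause of these changes was not tested.

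Replicate numbers were not taken as pairs. Deviations of same-numbered libraries correlated at 0.305 and 0.353 in experiment 1, where 2 pairs are too few to settle it, and at -0.528, -0.703 and 0.135 in experiment 2. With 3 against 2 libraries the lowest exact p is 0.2, and ratios were limited to genes with allele counts, 380 of 1555.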
